A study of Rattus norvegicus with 8 samples.

Results

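The genes described here are 9 members of the calcium-calmodulin branch of signaling: the calmodulin gene Calm2, the CaMKII subunits Camk2d and Camk2g, the calcineurin catalytic subunits Ppp3ca and Ppp3cb, the calcineurin regulators Rcan1 and Rcan2, and the transcription factors Nfatc1 and Nfatc4. They were chosen by gene symbol, with earlier results of these data known, and make up 9 of the 31699 genes in the deposited table. All 9 had a mean of at least 1 TPM, a unit of transcript abundance corrected for transcript length and library size, over the 8 samples and were therefore among the 13103 genes tested.

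Calmodulin is a small protein that binds calcium and then engages other proteins. CaMKII is a kinase and calcineurin a phosphatase that are both switched on by calcium-loaded calmodulin. Calcineurin removes phosphates from NFAT proteins, which then enter the nucleus, and RCAN proteins bind calcineurin and can restrain it. Piezo1 is a mechanically gated ion channel of the plasma membrane through which calcium enters the cell.

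RNA was sequenced from annulus fibrosus cells (AFCs), the fibroblast-like cells of the outer ring of the intervertebral disc, taken from Sprague Dawley rats and cultured. Of the 8 samples, 4 received the empty lentiviral vector pLVX-shRNA-Puro (Lv-Ctrl) and 4 received pLVX-shRNA-Puro-Piezo1, a vector encoding a short hairpin directed at Piezo1 mRNA (Lv-Piezo1). Both groups were under cyclic mechanical stretch (CMS), so the comparison is between vectors in stretched cells and holds no unstretched sample. The study calls the 4 samples of each group biological repeats, and its methods treat the cells of 1 isolation, from the pooled disc tissue of several rats, as 1 repeat. Each sample thus stands for a pool of animals. The methods describe at most 4 isolations, so by this account samples of both groups come from the same isolations. The labels do not tie a sample to an isolation. The tests below therefore treat the samples as independent, which this account does not bear out.

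Piezo1 mRNA itself went against its label in these samples, although the study reports a separate check of the knockdown. Its TPM was 31.10, 32.99, 26.68 and 29.46 in the Lv-Ctrl samples and 38.10, 37.74, 40.24 and 41.41 in the Lv-Piezo1 samples, higher in every sample labelled Lv-Piezo1 (log2 fold change 0.38, SE 0.06, limma adjusted p = 0.00086, scaled by median ratios 0.22). Every direction below is therefore between samples labelled Lv-Piezo1 and samples labelled Lv-Ctrl, in which Piezo1 mRNA was not lower. Samples correlated at 0.973 to 0.983 within a group and at 0.939 to 0.945 between groups. Mitochondrially encoded genes took 7.03% to 7.90% of TPM in Lv-Ctrl and 6.05% to 6.53% in Lv-Piezo1. The median log2 fold change over all tested genes was 0.14, and it became -0.0046 when samples were scaled by median ratios, so a scaled fold change is given beside the deposited one for the 9 genes, and for other named genes where scaling changed the call or moved the value by more than 1.5 times. Of the 12 annulus fibrosus and fibroblast markers 11 had a mean of at least 1 TPM, Tnmd being near 0, and the sum of the list was 8893 to 9930 TPM in Lv-Ctrl and 12384 to 13173 TPM in Lv-Piezo1. The list did not move as one, since 6 markers were higher and 4 lower, beside 41.9% and 16.3% of all tested genes. Col1a1 stood at means of 3282 and 5835 TPM, but Dcn at 1456 and 519 TPM and Fbln1 at 336 and 84.6 TPM. After scaling Lum was also lower (-0.12, limma adjusted p = 0.02). In bulk RNA, fewer cells of a type and less RNA per cell cannot be told apart.

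Of the 9 genes, 4 were higher in the Lv-Piezo1 group at an adjusted p below 0.05 (Camk2d, Camk2g, Rcan1 and Rcan2), 2 were lower (Calm2 and Ppp3ca) and 3 did not pass (Ppp3cb, Nfatc1 and Nfatc4). The 6 genes that passed must be read against a background in which 58.2% of all tested genes passed, 41.9% being higher and 16.3% lower. The values of the 2 groups did not overlap for the same 6 genes, compared with 54.2% of all tested genes. Rcan1 alone also passed a log2 fold change of 1, as did 7.67% of tested genes in either direction. The median log2 fold change of the 9 genes was -0.01, beside 0.14 for all tested genes. Scaled by median ratios, these medians were -0.16 and -0.0046. After median-ratio scaling, Ppp3cb and Nfatc4 were also lower and Rcan2 no longer passed, against a background of 55.8% of genes called, of which 27.9% of genes were higher and 27.9% lower.

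**Figure D1:**
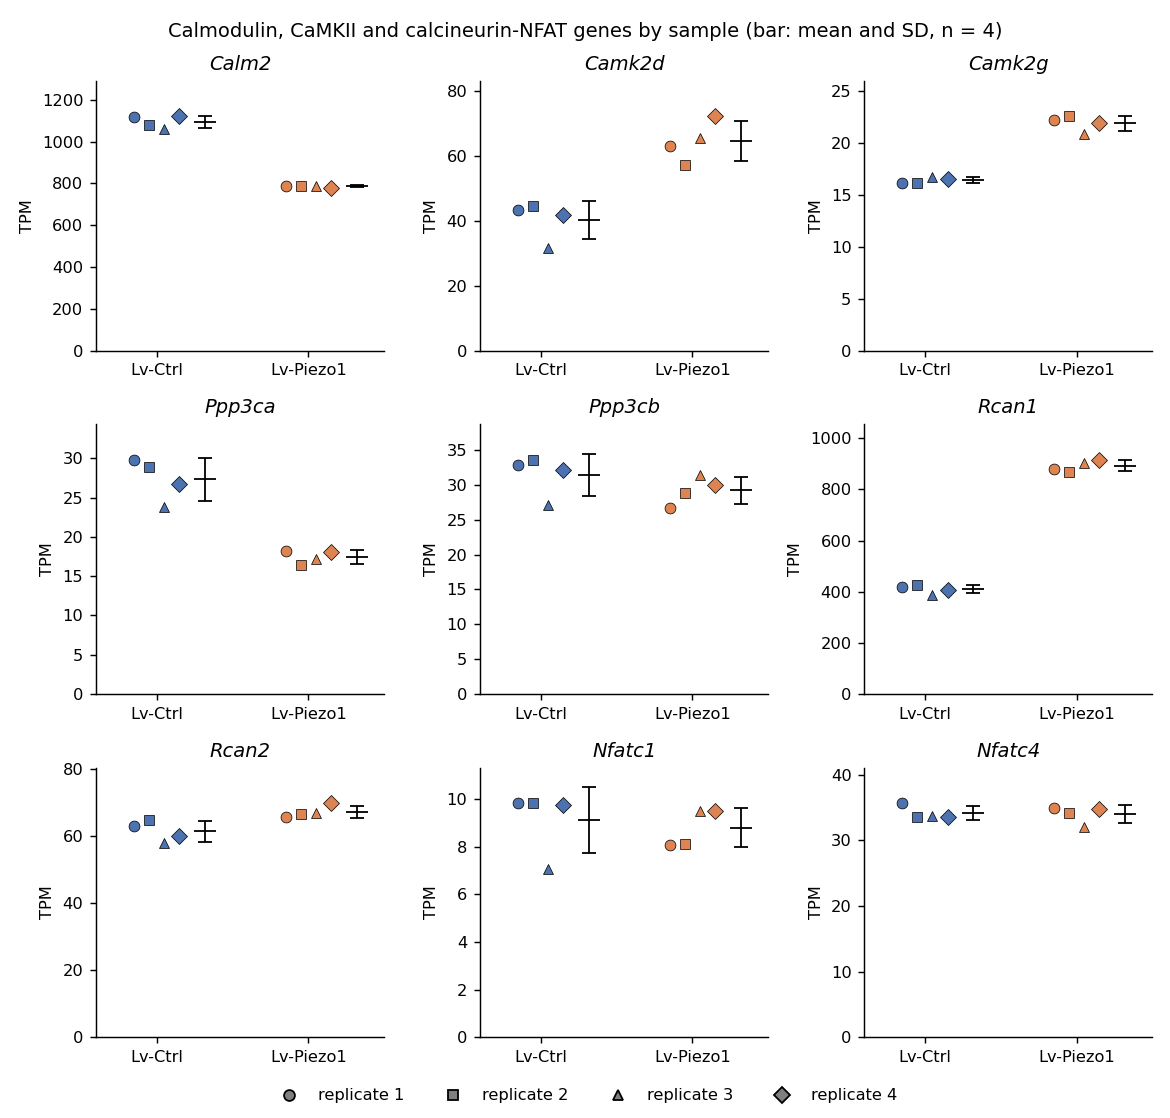
TPM of the 9 genes in each sample, with 1 panel per gene, the group on the x axis, TPM from 0 on the y axis, marker shapes for replicates, and the mean and SD of 4 samples beside the points. The 4 Rcan1 values labelled Lv-Piezo1 lie between 870 and 917 TPM and the 4 labelled Lv-Ctrl between 388 and 426 TPM, while the groups overlap for Ppp3cb, Nfatc1 and Nfatc4.

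Calm2 (ENSRNOG00000067086) was the most abundant of the 9 genes in Lv-Ctrl and was lower in Lv-Piezo1. Its TPM was 1115.78, 1078.38, 1058.86 and 1121.72 in the Lv-Ctrl samples and 789.16, 789.83, 789.59 and 780.72 in the Lv-Piezo1 samples. The groups were far apart, with means of 1094 ± 30.1 and 787 ± 4.41 TPM (SD, n = 4 each), a decrease of the mean by 28.0%. The log2 fold change was -0.47 (SE 0.03, 95% interval -0.53 to -0.41, limma adjusted p = 9e-07), and -0.64 after scaling. Genes and pseudogenes of the calmodulin family are similar in coding sequence, so the assignment of reads to Calm2 is uncertain. The pseudogene Calm-ps2 stood at 0.76 to 1.48 TPM in Lv-Ctrl and 1.01 to 1.51 TPM in Lv-Piezo1.

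CaMKII is assembled from subunits encoded by separate genes, and both subunit genes with substantial mRNA were higher in Lv-Piezo1. Camk2d (ENSRNOG00000011589) measured 43.34, 44.48, 31.54 and 41.96 TPM in the Lv-Ctrl samples and 63.16, 57.35, 65.52 and 72.29 TPM in the Lv-Piezo1 samples. The groups did not overlap, and replicate 3 stood lowest in Lv-Ctrl. The mean was 40.3 ± 5.95 TPM in Lv-Ctrl and 64.6 ± 6.18 TPM in Lv-Piezo1, 1.60 times as high (log2 fold change 0.67, SE 0.11, limma adjusted p = 0.00071, scaled 0.51).

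Camk2g (ENSRNOG00000009783) measured 16.15, 16.12, 16.75 and 16.55 TPM in Lv-Ctrl and 22.19, 22.55, 20.86 and 21.87 TPM in Lv-Piezo1. Its spread was narrow in both groups, and the highest Lv-Ctrl value was well below the lowest Lv-Piezo1 value. The ratio of means was 1.33 (log2 fold change 0.39, SE 0.04, limma adjusted p = 3.7e-05, scaled 0.24).

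Of the other subunit genes, Camk2a was low, at 1.54 to 2.29 TPM in Lv-Ctrl and 2.64 to 3.20 TPM in Lv-Piezo1, and was higher in Lv-Piezo1 (log2 fold change 0.42, limma adjusted p = 0.0074), a call that was lost under quantile normalization (0.20, adjusted p = 0.091). Camk2b had mean levels of 0.608 and 0.745 TPM and fell below the filter. Camk2n1, whose product inhibits CaMKII, measured 23.7 ± 2.65 and 21.1 ± 2.10 TPM and did not pass (log2 fold change -0.16, limma adjusted p = 0.16), although after scaling its change was -0.31 with an adjusted p of 0.017. The summed CaMKII level was 59.3 ± 5.78 TPM in Lv-Ctrl and 90.1 ± 5.96 TPM in Lv-Piezo1. Camk2d made up 67.7% of it in Lv-Ctrl and 71.5% in Lv-Piezo1, and the log2 ratio of Camk2d to Camk2g differed by 0.27 with overlapping groups (exact two-sided permutation p = 0.114, and 0.143 after adjustment over the 5 ratios compared). An unequal change of the 2 subunits was thus not shown, and without Lv-Ctrl replicate 3 the difference was 0.15.

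Calcineurin is built from a catalytic and a regulatory subunit, and of its catalytic genes Ppp3ca was lower in Lv-Piezo1 while Ppp3cb overlapped. Ppp3ca (ENSRNOG00000009882) measured 29.85, 28.88, 23.76 and 26.77 TPM in Lv-Ctrl and 18.24, 16.40, 17.13 and 18.10 TPM in Lv-Piezo1. All 4 Lv-Piezo1 samples were below all Lv-Ctrl samples, and the mean changed from 27.3 ± 2.70 to 17.5 ± 0.866 TPM, a decrease of 36.1% (log2 fold change -0.61, SE 0.07, limma adjusted p = 8.8e-05, scaled -0.77).

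Ppp3cb (ENSRNOG00000054782) measured 32.87, 33.63, 27.08 and 32.12 TPM in Lv-Ctrl and 26.73, 28.79, 31.39 and 29.97 TPM in Lv-Piezo1. Replicate 3 was the lowest Lv-Ctrl sample and lay within the Lv-Piezo1 range. The log2 fold change was -0.10 (SE 0.08, 95% interval -0.27 to 0.07, limma adjusted p = 0.29). The call for Ppp3cb depended on the treatment of samples, since the change was -0.26 with an adjusted p of 0.0048 after median-ratio scaling and -0.17 with an adjusted p of 0.032 without Lv-Ctrl replicate 3.

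Ppp3cc, the remaining catalytic gene, was higher at 12.5 ± 0.478 TPM in Lv-Piezo1 against 10.8 ± 0.811 TPM in Lv-Ctrl (log2 fold change 0.20, limma adjusted p = 0.020), a difference that was 0.05 with an adjusted p of 0.53 after scaling. The catalytic genes summed to 69.5 ± 5.93 TPM in Lv-Ctrl and 59.1 ± 1.64 TPM in Lv-Piezo1, and the sums touched, at 60.8 TPM for the lowest Lv-Ctrl and 60.9 TPM for the highest Lv-Piezo1 sample. The shares of Ppp3ca and Ppp3cc in the sum did not overlap between the groups. Ppp3ca gave 39.3% ± 1.08 of the sum in Lv-Ctrl and 29.5% ± 1.48 in Lv-Piezo1, and Ppp3cc gave 15.5% and 21.1%. Ppp3cb gave 45.2% and 49.4%, with overlapping values of 44.52% to 46.23% and 45.98% to 51.59%. The ratio of Ppp3ca to Ppp3cb was 0.869 in Lv-Ctrl and 0.600 in Lv-Piezo1, a log2 difference of -0.54 without overlap (exact permutation p = 0.029, the smallest that 4 against 4 samples can give, adjusted 0.048). The regulatory subunit gene Ppp3r1 had no entry under that symbol among the deposited values. Ppp3r2, whose expression is known from testis, was listed at 0 in every sample.

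Rcan1 showed the largest change of the 9 genes. Its mRNA is made from alternative first exons, and the shorter isoform is known as a target of calcineurin and NFAT, which makes it a commonly used readout of that pathway. The values here are for the whole gene and do not separate these starts. The 250 bases before the annotated start of Rcan1 and, for comparison, of its paralog Rcan2 are shown because the 2 genes differed in their response. Both are from RefSeq (build GRCr8), 5′ to 3′ on the minus strand, at chr11:45118237-45118486 for Rcan1 and chr9:24672190-24672439 for Rcan2. Capitals mark matches, on either strand, to GGAAA (the core that NFAT proteins bind) and TGANTCA (the AP-1 element) and TGACGTCA (the cAMP response element) and TATAAA (the TATA box).
Rcan1: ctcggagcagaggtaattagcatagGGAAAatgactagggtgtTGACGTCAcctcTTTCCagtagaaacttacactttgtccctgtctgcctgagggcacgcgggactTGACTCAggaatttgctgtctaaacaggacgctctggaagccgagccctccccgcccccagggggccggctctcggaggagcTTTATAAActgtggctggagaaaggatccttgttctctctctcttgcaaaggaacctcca
Rcan2: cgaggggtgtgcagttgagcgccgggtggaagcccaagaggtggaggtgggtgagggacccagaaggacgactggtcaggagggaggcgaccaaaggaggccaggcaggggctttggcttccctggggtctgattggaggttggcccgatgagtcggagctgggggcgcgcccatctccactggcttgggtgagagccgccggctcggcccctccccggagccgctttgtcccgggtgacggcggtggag

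The Rcan1 window held 2 matches to GGAAA, 1 to TGANTCA, 1 to TGACGTCA and 2 to TATAAA that overlap each other on opposite strands, and the Rcan2 window held none of the 4. The motifs were picked after the Rcan1 window had been read. Their presence there and their absence from the Rcan2 window are therefore a description only. A link of the windows to the difference between the 2 genes was not tested. Which of the alternative starts of Rcan1 this window precedes was not determined. Among 33469 RefSeq windows of the same length, 56.9% held GGAAA, 6.34% held TGANTCA, 1.59% held TGACGTCA and 12.9% held TATAAA. Windows were given for 6 of the 9 genes. Ppp3cb held 1 match to GGAAA, and Camk2d, Camk2g and Ppp3ca held no match to any of the 4. The share of G and C was 54% in the Rcan1 window and 62.8% to 80.8% in the other 5, against a median of 51.2% over all windows.

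Rcan1 (ENSRNOG00000001979) measured 418.80, 426.21, 388.48 and 407.37 TPM in Lv-Ctrl and 879.62, 870.00, 902.01 and 917.09 TPM in Lv-Piezo1. Every Lv-Piezo1 value exceeded the highest Lv-Ctrl value by a wide margin. The mean was 410 ± 16.4 TPM in Lv-Ctrl and 892 ± 21.3 TPM in Lv-Piezo1, 2.17 times as high (log2 fold change 1.12, SE 0.04, 95% interval 1.04 to 1.20, limma adjusted p = 1.9e-08). After scaling the log2 fold change was 0.96 (adjusted p = 9.1e-09), which is below the fold threshold of 1.

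Rcan2 (ENSRNOG00000010350) measured 63.13, 64.98, 58.04 and 60.12 TPM in Lv-Ctrl and 65.92, 66.64, 66.94 and 70.05 TPM in Lv-Piezo1. The groups did not overlap, but the gap between them was under 1 TPM. The deposited values gave a rise by a factor of 1.09 (log2 fold change 0.13, SE 0.04, limma adjusted p = 0.027) that turned to -0.031 with an adjusted p of 0.39 after median-ratio scaling. It was also lost without Lv-Ctrl replicate 4 (adjusted p = 0.068), without Lv-Piezo1 replicate 3 (adjusted p = 0.051) and without Lv-Piezo1 replicate 4 (adjusted p = 0.067). A direction for Rcan2 therefore cannot be given from these values.

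The ratio of the pair within a sample does not depend on a scaling factor between samples. Rcan1 was 6.67 times as abundant as Rcan2 in Lv-Ctrl and 13.2 times in Lv-Piezo1, a log2 difference of 0.99 (exact permutation p = 0.029, adjusted 0.048). Within each group this ratio was steady, with Rcan1 making up 86.4% to 86.6% of summed RCAN mRNA in the Lv-Ctrl samples and 92.4% to 92.8% in the Lv-Piezo1 samples. Rcan3, the remaining family member, was minor at 2.56 ± 0.156 and 3.74 ± 0.491 TPM and was higher in Lv-Piezo1 (log2 fold change 0.41, limma adjusted p = 0.0046), a call also lost under quantile normalization (0.20, adjusted p = 0.12). Rcan1 stood at 5.92 ± 0.319 times the summed calcineurin catalytic genes in Lv-Ctrl and at 15.1 ± 0.181 times in Lv-Piezo1.

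**Figure D2:**
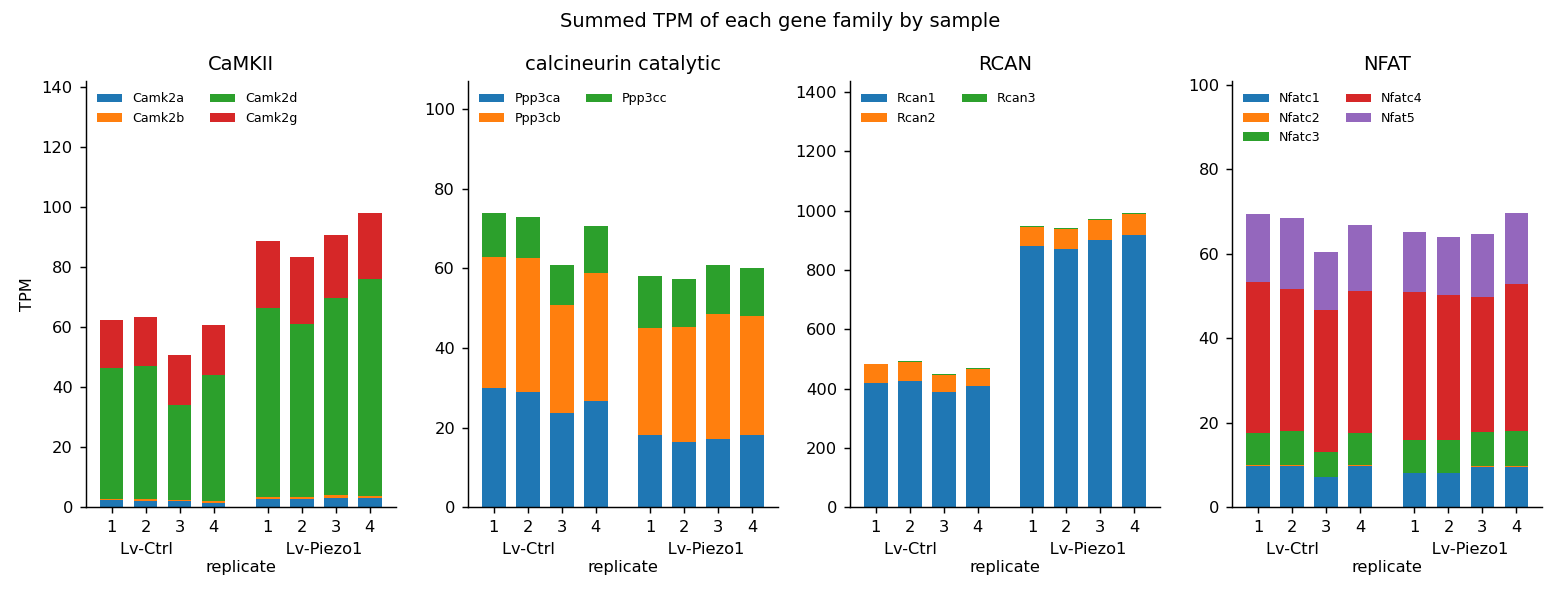
Summed TPM of 4 gene families in each of the 8 samples, with the replicate on the x axis, TPM from 0 on the y axis and the stacked colors giving the genes of each family. The Ppp3ca part of the calcineurin bars is smaller in Lv-Piezo1, and the RCAN bars stand at 449 to 494 TPM in Lv-Ctrl and at 941 to 991 TPM in Lv-Piezo1, most of it Rcan1.

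**Figure D3:**
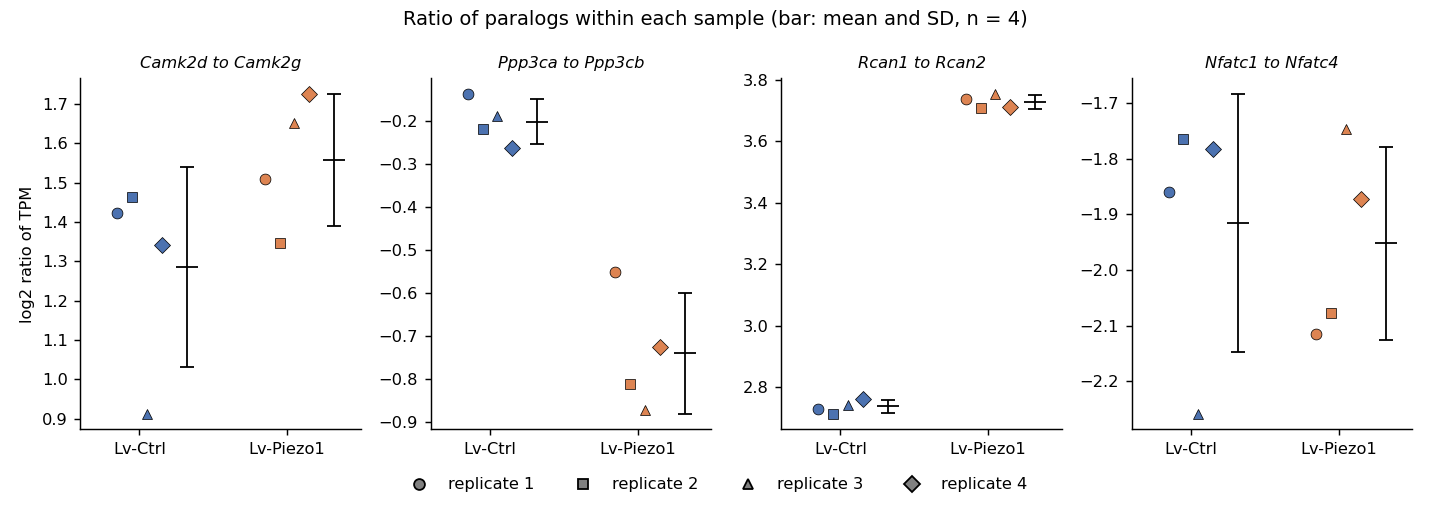
Log2 ratio of TPM between paralogs within each sample for 4 pairs, with the group on the x axis, the log2 ratio on a separate y axis per pair that does not start at 0, and the mean and SD of 4 samples beside the points. The Ppp3ca to Ppp3cb and Rcan1 to Rcan2 ratios do not overlap between groups, and the other two do.

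The genes whose pattern over the 8 samples lay nearest to that of Rcan1, among 9060 candidates with a symbol and a mean of at least 5 TPM, were Icam1, Slc29a1 and Stac2. Their root mean square distances from Rcan1 on the centred log2 scale were 0.0327, 0.038 and 0.0413. Icam1, an adhesion molecule, measured 73.7 to 79.6 TPM in Lv-Ctrl and 160.2 to 166.1 TPM in Lv-Piezo1. Slc29a1, a nucleoside transporter, measured 190.6 to 202.3 TPM and 406 to 418 TPM. Stac2 measured 7.69 to 8.58 TPM and 17.4 to 19.5 TPM. Such nearness was found by search and rests mainly on a similar difference between the groups.

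The NFAT genes showed no difference that passed in the deposited values. Nfatc4 (ENSRNOG00000020482) was the most abundant NFAT gene and measured 35.70, 33.48, 33.71 and 33.51 TPM in Lv-Ctrl and 34.94, 34.16, 31.94 and 34.79 TPM in Lv-Piezo1. The means were 34.1 ± 1.07 and 34.0 ± 1.39 TPM, and the interval of the log2 fold change ran from -0.10 to 0.09 (estimate -0.01, limma adjusted p = 0.91). After median-ratio scaling the change was -0.16 with an adjusted p of 0.011, so the call for Nfatc4 depended on the scaling.

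Nfatc1 (ENSRNOG00000017146) measured 9.84, 9.85, 7.05 and 9.74 TPM in Lv-Ctrl and 8.07, 8.10, 9.52 and 9.50 TPM in Lv-Piezo1. Lv-Ctrl replicate 3 stood below all other samples, and the groups overlapped. The log2 fold change was -0.04 (SE 0.11, 95% interval -0.29 to 0.21, limma adjusted p = 0.78), and -0.19 with an adjusted p of 0.11 after scaling. Quantile normalization gave -0.23 with an adjusted p of 0.045.

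Nfatc3 measured 5.81 to 8.13 TPM in Lv-Ctrl and 7.77 to 8.34 TPM in Lv-Piezo1 (log2 fold change 0.12, limma adjusted p = 0.29), and Nfat5, the calcineurin-independent member, 15.6 ± 1.36 and 14.8 ± 1.31 TPM (log2 fold change -0.07, limma adjusted p = 0.47). After scaling Nfat5 was lower (-0.22, adjusted p = 0.010), and Nfatc3 came to -0.023 with an adjusted p of 0.81. Nfatc2 was below the filter at mean levels of 0.140 and 0.180 TPM. The family summed to 66.3 ± 4.06 TPM in Lv-Ctrl and 65.8 ± 2.57 TPM in Lv-Piezo1, with Nfatc4 at 51.6% and 51.7% of the sum. The ratio of Nfatc1 to Nfatc4 was 0.267 and 0.260 (exact permutation p = 0.886). Lv-Ctrl replicate 3 was the lowest of its group in 7 of the 9 genes. The share of all tested genes lowest in that sample was not counted. Its median-ratio scaling factor, taken over the tested genes above 0 in every sample, was 0.899, against 0.947 to 0.972 in the other Lv-Ctrl samples. It also had the fewest genes above 0 of all samples, 16645 against up to 17657. The part of that sample's composition in these values was not tested.

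On the TPM scale, which is per transcript length, the order of the 9 genes changed at 2 places. In Lv-Ctrl the order of means was Calm2, Rcan1, Rcan2, Camk2d, Nfatc4, Ppp3cb, Ppp3ca, Camk2g and Nfatc1, and the neighbours from Camk2d to Ppp3ca overlapped in their sample values. In Lv-Piezo1 Rcan1 stood above Calm2 and Camk2g above Ppp3ca, in every sample in both cases. Rcan2 and Camk2d overlapped in Lv-Piezo1, at 65.92 to 70.05 and 57.35 to 72.29 TPM.

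The wider pathway was followed with 83 other symbols in 8 lists, of which 4 had no entry here. The others gave 80 entries, 1 symbol having more than 1, of which 60 were tested and 20 fell below the filter. Of the 60, 27 were higher in Lv-Piezo1, 6 were lower and 27 did not pass, so that 55.0% passed, close to the 58.2% of all tested genes. Their median log2 fold change was 0.17 beside 0.14 for all tested genes. After median-ratio scaling 20 were higher and 14 lower, with a median of 0.02.

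Among other calmodulin-binding effectors, 9 of 15 tested genes were higher, 2 were lower and 4 did not pass, so that 73.3% passed beside 58.2% of all tested genes. Their median log2 fold change was 0.57, and 8 were higher and 2 lower after scaling. Mylk, the kinase of myosin light chain, changed from 1.52 ± 0.130 to 11.4 ± 0.344 TPM (log2 fold change 2.30, SE 0.07, limma adjusted p = 1.2e-08). Pcp4, a small calmodulin-binding protein, changed from 13.2 ± 2.48 to 53.2 ± 3.58 TPM (log2 fold change 1.94, SE 0.12, limma adjusted p = 1.4e-06), and the scaffold Iqgap1 from 54.3 ± 8.53 to 107.9 ± 11.3 TPM (log2 fold change 0.99). Marcks, an actin-binding substrate of protein kinase C that calmodulin also binds, was lower, at 10.0 ± 1.09 and 5.96 ± 0.576 TPM (log2 fold change -0.66). These genes moved beside smooth muscle and pericyte markers, whose summed level was 828 to 863 TPM in Lv-Ctrl and 4604 to 4773 TPM in Lv-Piezo1. Of those 12 markers 8 were higher and 2 lower, beside 41.9% and 16.3% of all tested genes. Pdgfrb, among the 8, came to -0.013 with a limma adjusted p of 0.69 after scaling. Mean levels of the contractile genes Acta2, Tagln and Myh11 were 51.2, 219 and 1.80 TPM in Lv-Ctrl and 1344, 2730 and 47.9 TPM in Lv-Piezo1, Kcnj8 was lower at 326 and 39.1 TPM, and Rgs5 was at most 0.35 TPM in any sample. Their part in the result was not tested.

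Among the calmodulin kinases outside CaMKII, Camk1d fell from 6.79 ± 1.01 to 4.39 ± 0.254 TPM (log2 fold change -0.52, limma adjusted p = 0.0014) and Camkk2, an upstream kinase, from 8.84 ± 0.430 to 7.59 ± 0.276 TPM (log2 fold change -0.20, limma adjusted p = 0.013, scaled -0.34). Camkk1, at lower levels, went the other way. It measured 1.51 to 2.20 TPM in Lv-Ctrl and 4.24 to 4.77 TPM in Lv-Piezo1 (log2 fold change 0.95, limma adjusted p = 4.3e-05, scaled 0.83). In the whole list of calmodulin kinases, beside Camk2d and Camk2g, 2 of 6 were higher (Camk2a and Camkk1), 2 lower and 2 did not pass. Thus 66.7% passed, beside 58.2% of all tested genes, of which 41.9% were higher and 16.3% lower. After scaling 2 were higher and 3 lower in this list. Of 5 further calcineurin regulators 2 were higher and 1 was lower, so that 60% passed, near the same share. After scaling 2 were higher and 2 lower. Fkbp1a, which encodes the binding protein of the calcineurin inhibitor tacrolimus, was higher at 258 ± 6.06 TPM against 203 ± 10.5 TPM (log2 fold change 0.34, limma adjusted p = 8.5e-05, scaled 0.18).

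Of 12 kinases and scaffolds that act on NFAT, 4 were higher, none was lower and 8 did not pass at the same limma threshold, so that 33.3% passed, below the 58.2% of all tested genes. After scaling 3 were higher and 2 lower. Mapk14, the p38 alpha kinase, had a log2 fold change of 0.57 (means of 28.9 and 43.4 TPM), Csnk1d of 0.47 (87.3 and 121 TPM, scaled 0.31) and Csnk1e of 0.44 (33.1 and 45.0 TPM, scaled 0.28). Of 16 effectors downstream of the CaM kinases and calcineurin, 7 were higher, 1 was lower and 8 did not pass, so that 50% passed. After scaling 4 were higher and 4 lower. Srf, the serum response factor, changed by 0.68 on the log2 scale (means of 14.3 and 23.5 TPM), the calcineurin-responsive factor Mef2c by 0.63 (4.27 and 7.14 TPM) and the coactivator Crtc1 by 0.47 (7.29 and 10.4 TPM). Bad, an apoptosis regulator that calcineurin dephosphorylates, was lower by a small amount, 24.4 ± 0.285 against 26.9 ± 1.40 TPM (log2 fold change -0.13, limma adjusted p = 0.029, scaled -0.29).

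**Figure D4:**
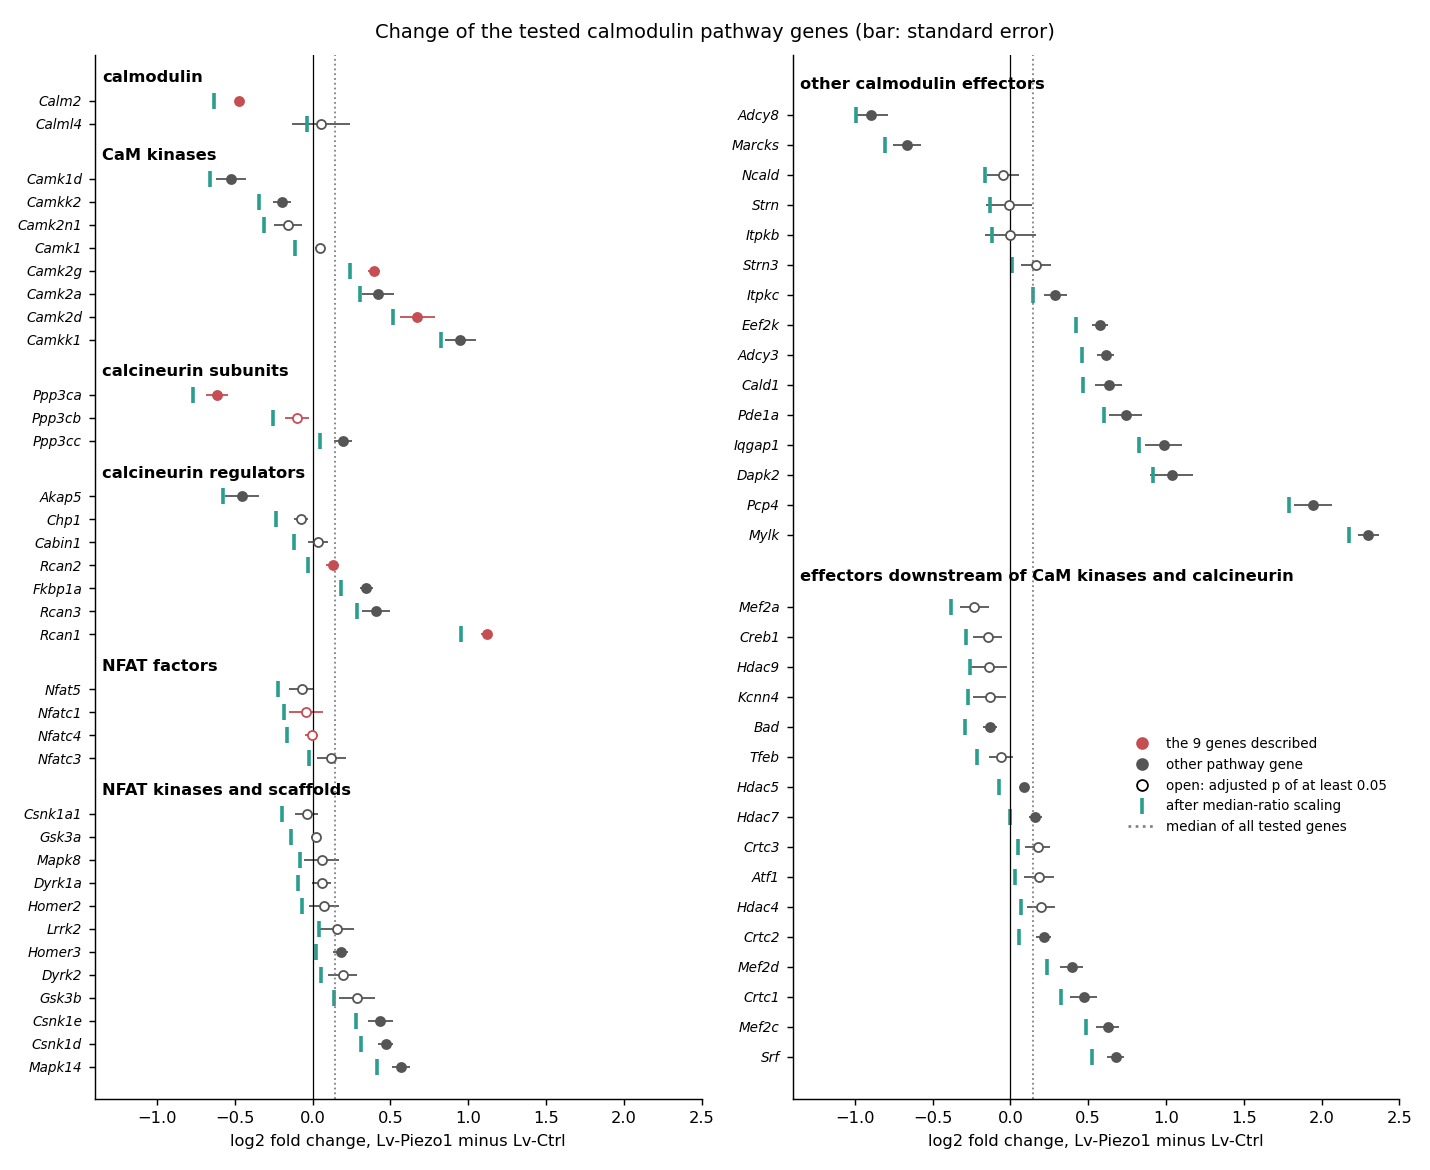
Log2 fold change (Lv-Piezo1 minus Lv-Ctrl, x axis) with its standard error for the 9 genes (red) and other tested pathway genes (grey), grouped by list. Filled points passed an adjusted p below 0.05, green ticks give the change after median-ratio scaling, and the dotted line marks the median of all tested genes at 0.14. Rcan1 is the only red point beyond 1, and Calm2 and Ppp3ca lie on the opposite side.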

How the data were processed

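RNA-seq libraries of 8 AFC samples were analysed. The deposited values are TPM per gene, computed by the authors and given to 2 decimals. The table has a column for every sample and 2 of group means, which were not used. The methods name HISAT2 and StringTie and describe FPKM, and the submitters' processing notes name DESeq2 and the mouse build mm10, although the gene identifiers are those of rat. TPM keeps no counts, so depth is unknown and precision rests on the spread of 4 samples. Genes whose TPM averaged 1 or more were tested on log2(TPM + 1), which understates changes of low genes, with limma 3.58.1 in R 4.3.3 (moderated linear model with trend, all 8 samples, Benjamini-Hochberg over 13103 genes). On simulated data with 200 changed genes among 13103, 198 were recovered past both the adjusted p and the fold threshold. The planted changes were 1.5 on the log2 scale and lay only in genes above a set level. Recovery of smaller changes, such as most of those described here, was not tested. Ratios were compared by exact permutation of the sample labels.

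Named genes are the 9 genes, their family partners, Piezo1, the 3 genes nearest to Rcan1, and in each other list up to 3 rises and 3 falls with a mean of at least 5 TPM and no overlap. Calm-ps2, Ppp3r2, Camkk1 and single markers were named after their values were seen. A gene that falls under this rule, and 1 ratio that needs it, are not reported here. The 9 genes and all lists were chosen with earlier results of these data known. Alternatives covered the pseudocount, filters, scaling, mitochondrial genes, trend, replicate block and leaving out each sample.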

Additional observations from a re-analysis of the deposited data

Results flagged for a closer look

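Over the 9 genes and Piezo1 in each group, 3 of 20 sets of 4 values held a sample far from the other 3, and chance gives about 1 in 20. Calm2 was 780.72 TPM in Lv-Piezo1 replicate 4, where the other samples lay between 789.16 and 789.83 TPM, a gap that is small beside the difference between the groups. Nfatc1 was 7.05 TPM in Lv-Ctrl replicate 3, where the others lay between 9.74 and 9.85 TPM. Nfatc4 was 35.7 TPM in Lv-Ctrl replicate 1, where the others lay between 33.48 and 33.71 TPM.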

How the results depend on the processing

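Median-ratio scaling left 0 of the 9 genes past the adjusted p and the fold threshold, compared with 1 in the deposited values, because Rcan1 came to 0.96. It turned Rcan2 to -0.031, and without mitochondrially encoded genes Rcan2 did not pass either (adjusted p = 0.061). A pseudocount of 0.1 gave 5 other pathway genes past both thresholds in place of 3. Leaving out 1 sample at a time, 5 to 7 of the 9 genes and 31 to 34 of the pathway genes passed the adjusted p. Of the 9 genes, 7 passed after median-ratio scaling and 8 under quantile normalization. Under quantile normalization Calm2, Ppp3ca, Ppp3cb, Nfatc1 and Nfatc4 were lower, while Camk2d, Camk2g and Rcan1 were higher. The calls for Calm2, Camk2d, Camk2g, Ppp3ca and Rcan1 at an adjusted p below 0.05 held under each alternative run. Same-numbered samples did not deviate together (correlations -0.0576 to -0.0124), so the replicate numbers were not taken as pairs. Taken as pairs, they gave p = 0.125 by exact sign flips for the Ppp3ca to Ppp3cb and the Rcan1 to Rcan2 ratio. That is the smallest value that 4 pairs can give. With a replicate block 5 of the 9 genes and 31 of the pathway genes passed, Rcan2 being lost (0.13, adjusted p = 0.067). The cause of these shifts was not tested. Over all tested genes, 5489 were higher and 2137 lower in the deposited values, and 3657 and 3651 after scaling.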

Other observations

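The other cell type lists gave low or mixed values in the samples in which the calmodulin pathway genes were measured. Chondrocyte and nucleus pulposus markers summed to 35.7 to 41.6 TPM in Lv-Ctrl and 55.6 to 59.4 TPM in Lv-Piezo1, mostly from Acan. Of the 8 genes in that list 5 had an entry, and Krt19, Car12 and T had none under those symbols. Macrophage markers summed to 21.0 to 22.7 TPM and 36.2 to 41.3 TPM, carried by Cd14 and Cd68, while Ptprc, the pan-leukocyte marker, was at most 0.01 TPM. Endothelial markers summed to at most 0.62 TPM. Skeletal muscle markers summed to 10.4 to 53.6 TPM in Lv-Ctrl, the highest value being in replicate 2, and to 20.7 to 22.8 TPM in Lv-Piezo1. Neuron and glia markers summed to 327 to 339 TPM and 149.8 to 160.1 TPM, nearly all of it S100b.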
